A study of Setaria viridis with 11 samples.

Results

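The 4 transcripts described here encode enzymes that remove hydrogen peroxide or pass on reducing power in the leaf of the C4 grass *Setaria viridis*. They are APX7 (Si010520m), an ascorbate peroxidase, CAT1 (Si016999m), a catalase, and a pair of thioredoxin transcripts, Si037706m and Si038003m, that stand under TRX H2 in the copy of the study's list used here. The name of Si037706m is uncertain, because the entry just above it in that copy, TRX F2, has no identifier and the identifiers may be displaced. Si037706m may thus be the TRX F2 transcript. No annotation was at hand to settle whether it encodes an h-type or an f-type thioredoxin, so TRX H2 serves below only as a label for the pair. They were picked by identifier, as 4 of the 40599 transcript identifiers listed for every plant, and all 4 passed the filter on low counts. RNA-seq covered 6 heat-stressed and 5 control wild-type A10 plants, with 1 library per plant, prepared from pooled midsections of fully expanded leaves. For 2 weeks the heat-stressed plants had days of 42 °C and nights of 32 °C, whereas control plants stayed at 28 °C and 20 °C by the sample labels (some captions of the study give another night temperature), and all were harvested at day 28. Each treatment had its own growth chamber, so chamber and heat cannot be told apart. Reads were aligned to the genome of *S. italica*, a close relative.

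Hydrogen peroxide is made in chloroplasts when superoxide is dismutated and in peroxisomes when glycolate is oxidized during photorespiration, which C4 leaves keep low. Catalase breaks it down in peroxisomes without a reductant, whereas ascorbate peroxidase spends ascorbate and works at low peroxide concentrations. In rice, the enzyme called APX7 is targeted to the chloroplast stroma. Thioredoxins are small proteins that reduce disulfide bonds in other proteins, peroxiredoxins among them. The h type works mostly outside the plastid, whereas the f type works in the chloroplast, where it regulates enzymes of carbon fixation. No lengths were used here, so a level is comparable between plants for 1 transcript, whereas a ratio or share of different transcripts is of read counts, not of molecules. Reads that matched several places, as in similar family members, were not counted, so shares within a family are of unshared reads.

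The libraries held 34731849 to 47441261 counts in heat-stressed plants and 34362084 to 54011056 in control plants. The chloroplast transcript psbA, for the D1 protein of PSII, took 46.1% to 48.5% of the counts in heat-stressed plants and 61.8% to 69.6% in control plants. Levels are therefore given as CPM, a count scaled to a common library total and then with TMM factors, which set the typical transcript equal between libraries. These factors were 1.33 to 1.5 in heat-stressed plants and 0.576 to 0.796 in control plants. With this scaling, 63.1% of the 18065 tested transcripts had an edgeR adjusted p under 0.05, 32.2% higher and 30.9% lower under heat. A call by itself is thus close to the ordinary outcome in these data, and the size of a difference and its spread say more. In whole leaves, fewer cells of a type and less RNA per cell cannot be told apart.

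APX7 was higher and CAT1 was lower in heat-stressed plants, and neither transcript's groups overlapped. Of the 2 thioredoxin transcripts, the abundant Si037706m fell, whereas the rare Si038003m did not pass the test. Thus 3 of the 4 transcripts passed the threshold, 1 higher and 2 lower, where 63.1% of all tested transcripts passed it.

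APX7, the ascorbate peroxidase, had 760, 1011, 547, 776, 715 and 615 counts in heat-stressed plants 1 to 6. In control plants 1 to 5 it had 56, 63, 67, 112 and 75 counts. On the scaled level these were 11.4, 15.5, 9.1, 15.4, 13.9 and 11.9 CPM under heat, against 2.11, 3.18, 1.95, 3.19 and 2.22 CPM in control. The lowest heat-stressed plant stood well above the highest control plant. The mean level was 12.9 ± 2.52 CPM in heat-stressed plants (SD, n = 6) and 2.53 ± 0.607 CPM in control plants (SD, n = 5). APX7 rose with a log2 fold change of 2.35 (SE 0.182, 95% interval 1.96 to 2.74, edgeR adjusted p = 1.02e-07), or 5.1-fold. Across all tested transcripts, every heat-stressed plant lay above every control plant for 23.5% and below every control plant for 21.4%.

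CAT1, the catalase, had 354, 144, 279, 365, 295 and 191 counts in heat-stressed plants 1 to 6. Control plants 1 to 5 had 465, 523, 467, 638 and 698 counts. Its level was 5.32, 2.21, 4.64, 7.23, 5.74 and 3.69 CPM under heat, against 17.5, 26.4, 13.6, 18.2 and 20.7 CPM in control. Even the highest heat-stressed plant, plant 4, stayed below the lowest control plant, plant 3. The mean level was 4.81 ± 1.73 CPM in heat-stressed plants (SD, n = 6) and 19.3 ± 4.73 CPM in control plants (SD, n = 5). CAT1 fell by 2.00 on the log2 scale (SE 0.246, 95% interval -2.53 to -1.48, edgeR adjusted p = 7.97e-06), to 24.9% of the control level.

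**Figure D1:**
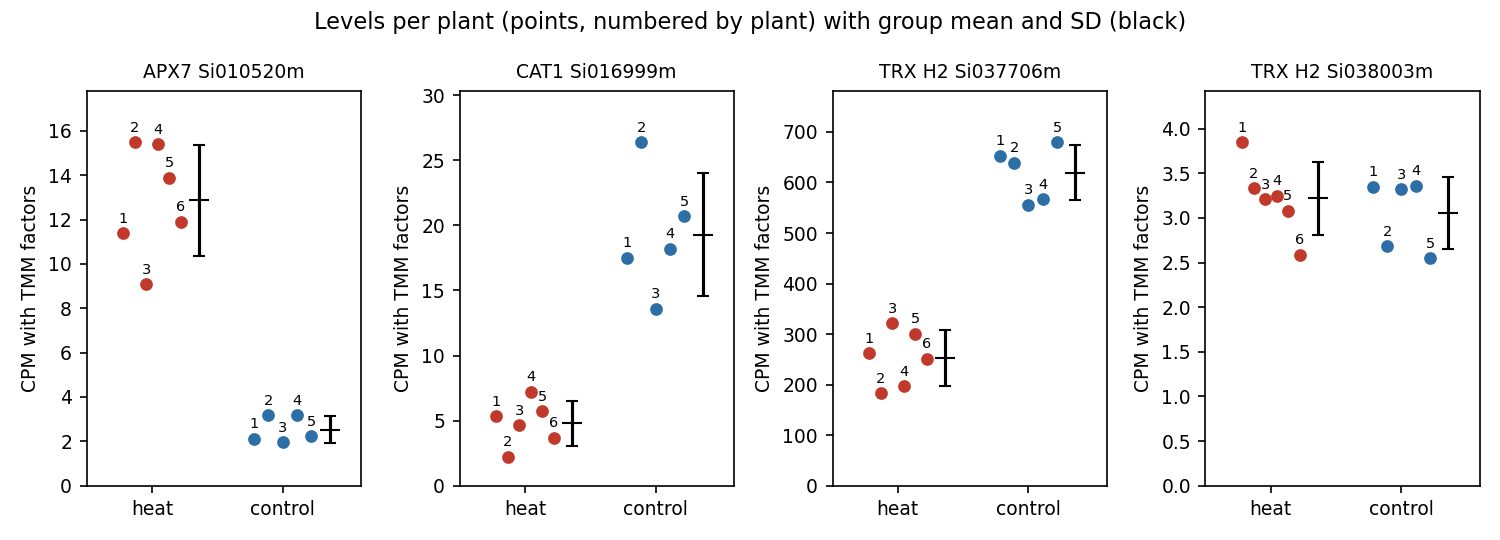
Level of APX7, CAT1 and both transcripts labelled TRX H2 in each plant, in CPM with TMM factors on linear axes whose range differs between panels, with heat-stressed plants (n = 6) left of control plants (n = 5). Points are plants, numbered, and black bars are means with SD. The groups do not overlap for APX7, CAT1 and Si037706m, and they overlap for Si038003m, at 2.59 to 3.85 CPM under heat and 2.55 to 3.36 CPM in control.

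CAT1 varied most among heat-stressed plants. Its coefficient of variation (SD over mean) was 36.1% in heat-stressed plants and 24.5% in control plants, and its highest plant was 3.27 times its lowest under heat and 1.94 times in control. For APX7 the coefficient was 19.6% under heat and 23.9% in control. The 9840 transcripts with a mean of at least 2 CPM had a median of 13.7% under heat and 15.3% in control, with upper quartiles of 20.8% and 22.4%. CAT1 therefore lay above the upper quartile in both groups, whereas APX7 did so only in control. There APX7 had only 56 to 112 counts per plant, against 547 to 1011 under heat. Counting error, larger at low counts, was not separated from this spread. With 6 and 5 plants, these coefficients were not tested.

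The order of APX7 and CAT1 counts within a plant was opposite in heat-stressed and control plants. Other ascorbate peroxidase and catalase transcripts were not examined here, so this covers these transcripts and not the enzyme classes. A ratio within 1 library needs no scaling factor, so the psbA share does not enter it. APX7 made up 68.2%, 87.5%, 66.2%, 68%, 70.8% and 76.3% of the summed APX7 and CAT1 counts in heat-stressed plants 1 to 6. In control plants 1 to 5 it made up 10.7%, 10.8%, 12.5%, 14.9% and 9.7%. The Wilson 95% intervals, which cover counting error only, ran from 62.9% to 69.4% in the lowest heat-stressed plant and from 12.6% to 17.7% in the highest control plant. APX7 counts thus outnumbered CAT1 counts in 6 of 6 heat-stressed plants, by 1.96 to 7.02 times. CAT1 counts outnumbered APX7 counts in 5 of 5 control plants, by 5.7 to 9.31 times.

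The mean APX7 share was 72.8% ± 8.01 in heat-stressed plants (SD, n = 6) and 11.7% ± 2.06 in control plants (SD, n = 5), a difference of 61.1 percentage points (2-sided exact permutation p = 0.00433, adjusted p = 0.00758 over the 7 single-value tests). This p is the smallest that splits of 6 against 5 plants allow. The log2 ratio of APX7 to CAT1 counts averaged 1.49 ± 0.693 under heat and -2.92 ± 0.275 in control, a difference of 4.41 or 21.2-fold (exact permutation p = 0.00433, adjusted p = 0.00758). Heat-stressed plant 2 held both the highest APX7 level and the lowest CAT1 level of its group. Heat-stressed plant 4 held nearly the same APX7 level with the highest CAT1 level of its group, so a high APX7 level went with either.

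**Figure D2:**
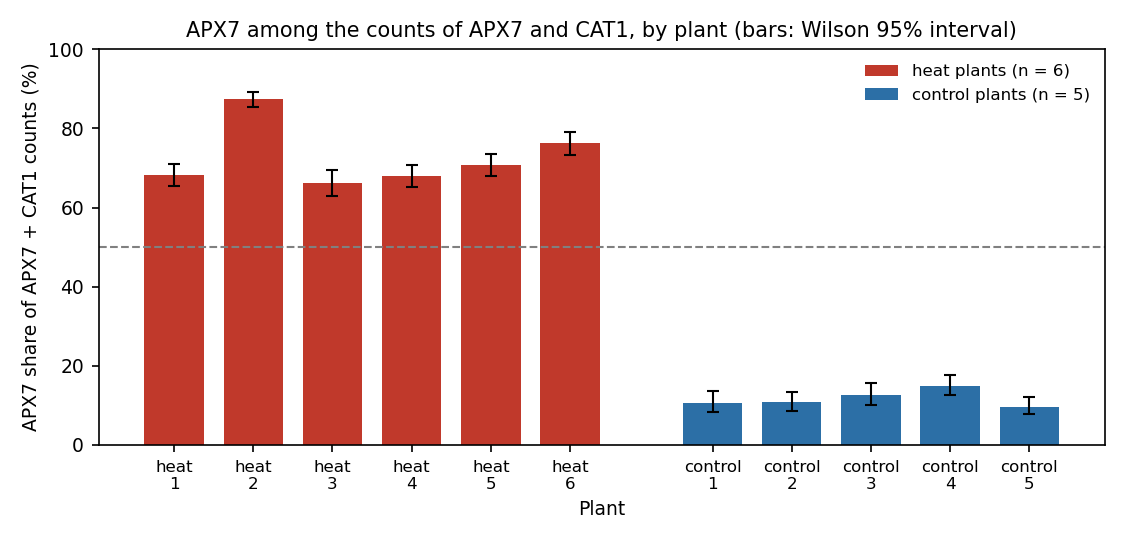
APX7 as a percentage of the summed APX7 and CAT1 counts in each plant, heat-stressed plants left of control plants, drawn as bars with Wilson 95% intervals that cover counting error only. The dashed line marks equal counts of both transcripts. The 6 heat-stressed plants lie at 66.2% to 87.5% and the 5 control plants at 9.7% to 14.9%.

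The sum of both levels had no difference that passed the test. APX7 and CAT1 together reached 17.7 ± 3.13 CPM in heat-stressed plants (SD, n = 6) and 21.8 ± 5.15 CPM in control plants (SD, n = 5). On the log2 scale the difference was -0.29 (exact permutation p = 0.143, adjusted p = 0.167), and the groups overlapped. This sum depends on the scaling, and with library size only it was higher under heat by 0.77 (exact permutation p = 0.00433).

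Si037706m, the thioredoxin transcript with most reads, had 17430, 11922, 19293, 9920, 15450 and 12956 counts in heat-stressed plants 1 to 6. In control plants 1 to 5 it had 17355, 12638, 19073, 19881 and 22943 counts. The raw counts of the groups overlapped, in libraries that differ in the share taken by psbA. Scaled, the level was 262, 183, 321, 197, 301 and 251 CPM under heat, against 653, 639, 556, 567 and 680 CPM in control. The groups then stood clear of each other. The mean level was 252 ± 54.9 CPM in heat-stressed plants (SD, n = 6) and 619 ± 54.8 CPM in control plants (SD, n = 5). Si037706m had a log2 fold change of -1.30 (SE 0.146, 95% interval -1.61 to -0.98, edgeR adjusted p = 3.62e-06), which is 40.8% of the control level. With library size only, where the median transcript was shifted by 1.07 on the log2 scale, the change was -0.24 (edgeR adjusted p = 0.119), or -1.31 relative to that median. Its coefficient of variation was 21.7% in heat-stressed plants and 8.85% in control plants, which is under the lower quartile of 10.5% in control.

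Si038003m, the other thioredoxin transcript, had 256, 217, 193, 164, 158 and 134 counts in heat-stressed plants 1 to 6. In control plants 1 to 5 it had 89, 53, 114, 118 and 86 counts. Its level was 3.85, 3.33, 3.21, 3.25, 3.08 and 2.59 CPM under heat, against 3.35, 2.68, 3.32, 3.36 and 2.55 CPM in control. The groups overlapped, and only heat-stressed plant 1 lay above every control plant. The mean was 3.22 ± 0.406 CPM in heat-stressed plants (SD, n = 6) and 3.05 ± 0.404 CPM in control plants (SD, n = 5). The log2 fold change was 0.07 (SE 0.133, 95% interval -0.21 to 0.36, edgeR adjusted p = 0.645), and the interval bounds the change without showing that the level stayed equal. With library size only it was 1.11 (edgeR adjusted p = 6.75e-05), or 0.04 relative to the shifted median.

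Si037706m supplied nearly all reads of the pair in every plant, yet the share of the rarer transcript was larger under heat. Si038003m made up 1.45%, 1.79%, 0.99%, 1.63%, 1.01% and 1.02% of the summed counts of the pair in heat-stressed plants 1 to 6. In control plants 1 to 5 it made up 0.51%, 0.418%, 0.594%, 0.59% and 0.373%. The shares of the groups did not overlap, and the heat-stressed plants split into 3 near 1% and 3 at 1.45% or more. The mean share was 1.31% ± 0.352 in heat-stressed plants (SD, n = 6) and 0.497% ± 0.0998 in control plants (SD, n = 5). The share of Si037706m accordingly fell by 0.82 percentage points (2-sided exact permutation p = 0.00433, adjusted p = 0.00758).

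**Figure D3:**
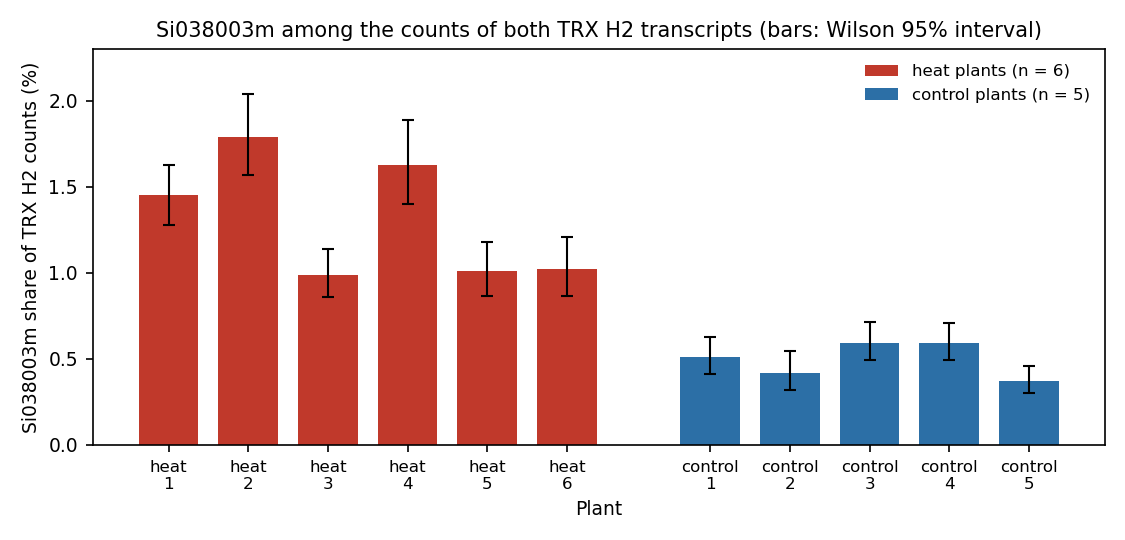
Si038003m as a percentage of the summed counts of Si037706m and Si038003m (labelled TRX H2) in each plant, heat-stressed plants left of control plants, drawn as bars with Wilson 95% intervals that cover counting error only. The 6 heat-stressed plants lie at 0.99% to 1.79% and the 5 control plants at 0.373% to 0.594%.

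Both thioredoxin transcripts together reached 256 ± 54.8 CPM in heat-stressed plants (SD, n = 6) and 622 ± 54.5 CPM in control plants (SD, n = 5). The sum fell by 1.31 on the log2 scale (exact permutation p = 0.00433, adjusted p = 0.00758), and its groups did not overlap. With library size only the difference was -0.24 (exact permutation p = 0.108). The summed counts of the pair, which are nearly all from Si037706m, were also set against those of the 4 TRX H9 transcripts, listed as h-type thioredoxins. Since Si037706m may encode an f-type thioredoxin, this ratio may not be one within the h type. The log2 ratio averaged 5.38 ± 0.351 in heat-stressed plants and 5.53 ± 0.6 in control plants, and the difference of -0.14 did not pass the test (exact permutation p = 0.632). Of the TRX H9 transcripts, Si003271m was higher under heat, at 2.37 against 1.03 CPM, whereas Si023612m, Si023614m and Si023615m were lower, with log2 fold changes of -2.27, -2.62 and -0.92, of which Si023615m turned to 0.14 with library size only (edgeR adjusted p = 0.685).

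CAT1 was set against the glycolate oxidase transcript Si040072m, whose enzyme makes hydrogen peroxide in the peroxisome where catalase removes it. Other catalase transcripts were not examined, so this comparison covers CAT1 and not catalase as a whole. Si040072m reached 71.6 ± 21.2 CPM in heat-stressed plants (SD, n = 6) and 162.2 ± 9.5 CPM in control plants (SD, n = 5), a log2 fold change of -1.18 (edgeR adjusted p = 3.82e-05), which was -0.14 with library size only (edgeR adjusted p = 0.463). Per CAT1 count there were 11.6, 21.2, 21.2, 7.52, 16.5 and 19.8 glycolate oxidase counts in heat-stressed plants 1 to 6. Control plants 1 to 5 had 8.6, 6.45, 11.5, 8.82 and 8.36. Heat-stressed plant 4 lay among the control plants, and the other 5 heat-stressed plants lay above all of them. The log2 ratio of CAT1 to glycolate oxidase was -3.93 ± 0.6 under heat and -3.10 ± 0.295 in control, a difference of -0.83 (exact permutation p = 0.0346, adjusted p = 0.0485). It passed the threshold narrowly and no longer did so when heat-stressed plant 2, 3, 5 or 6 or control plant 1, 2, 4 or 5 was left out (exact permutation p = 0.0571 to 0.0762).

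The other redox transcripts were taken from the study's supplement and were grouped into 7 lists for this report. Of the 54 listed transcripts, 50 were tested. Of these, 12 were higher and 21 were lower in heat-stressed plants, which is 24% and 42%, beside 32.2% and 30.9% of all tested transcripts. Their median log2 fold change was -0.20, beside 0.02 over all tested transcripts. These shares describe the lists only, since the lists were not tested as sets.

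Superoxide dismutases, which make hydrogen peroxide from superoxide, and their copper chaperone had 3 higher and 0 lower of 5. CuZn SOD2 (Si014166m) averaged 216 ± 33.4 CPM in heat-stressed plants and 73.5 ± 11.4 CPM in control plants, a log2 fold change of 1.56 (edgeR adjusted p = 3.05e-07). Fe SOD2 (Si038762m), of the chloroplast type, had a log2 fold change of 1.29. All 5 were higher with library size only.

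Of the other peroxide-removing families, with TMM factors, glutathione peroxidases had calls in a single direction and peroxiredoxins in both. Glutathione peroxidases had 0 higher and 3 lower of 5, with GPX6 (Si023447m) at a log2 fold change of -1.49 and GPX1 (Si007214m) at -1.41, and with library size only the list had 3 higher and 2 lower. Both named transcripts stayed lower under that scaling, at -0.42 and -0.33. Peroxiredoxins, which take electrons from thioredoxins, had 3 higher and 3 lower of 7. PRX (Si030949m) was at -1.36 and PRX type 2 (Si019430m) at 1.11, and with library size only the list had 5 higher and 1 lower.

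The thioredoxin reductases, which recharge thioredoxins, had 0 higher and 3 lower of 6, and with library size only 4 higher and 0 lower. Among them, FTRA2 (Si019590m) was at a log2 fold change of -1.07 and FTR B (Si007948m) at -0.53. Neither passed with library size only, where FTRA2 was at -0.03 (edgeR adjusted p = 0.875) and FTR B turned to 0.48 (edgeR adjusted p = 0.0725). The other thioredoxins with an identifier in the copy of the list used had 2 higher and 7 lower of 16, and listed thioredoxins without one were not analysed here. The largest fall among these 16 was that of ACHT4 (Si029974m) at -5.07, or 0.227 ± 0.101 CPM in heat-stressed plants and 7.61 ± 1.52 CPM in control plants. Another ACHT4 transcript, Si036947m, named after its values were seen, was higher, at 69.1 ± 33.3 CPM in heat-stressed plants and 21.4 ± 3.05 CPM in control plants, a log2 fold change of 1.69 (edgeR adjusted p = 8.48e-05). The second fall among the 16 by size was the TRX H9 transcript Si023614m at -2.62. With library size only this list had 9 higher and 3 lower, and ACHT4 (Si029974m) stayed lower at -4.04 and Si023614m at -1.53.

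Protein disulfide isomerases, which form disulfide bonds in proteins of the endoplasmic reticulum, and APR-like proteins had 3 higher and 3 lower of 7, with PDI10 (Si029519m) at a log2 fold change of 2.29 and PDI11 (Si001948m) at 0.76. All 7 were higher with library size only. Glycolate oxidases had 1 higher and 2 lower of the 4 tested among 8 listed, and with library size only 3 higher and 0 lower. Beside Si040072m, the transcript Si030190m was lower at -0.38 (edgeR adjusted p = 0.026), and it turned to 0.66 with library size only.

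**Figure D4:**
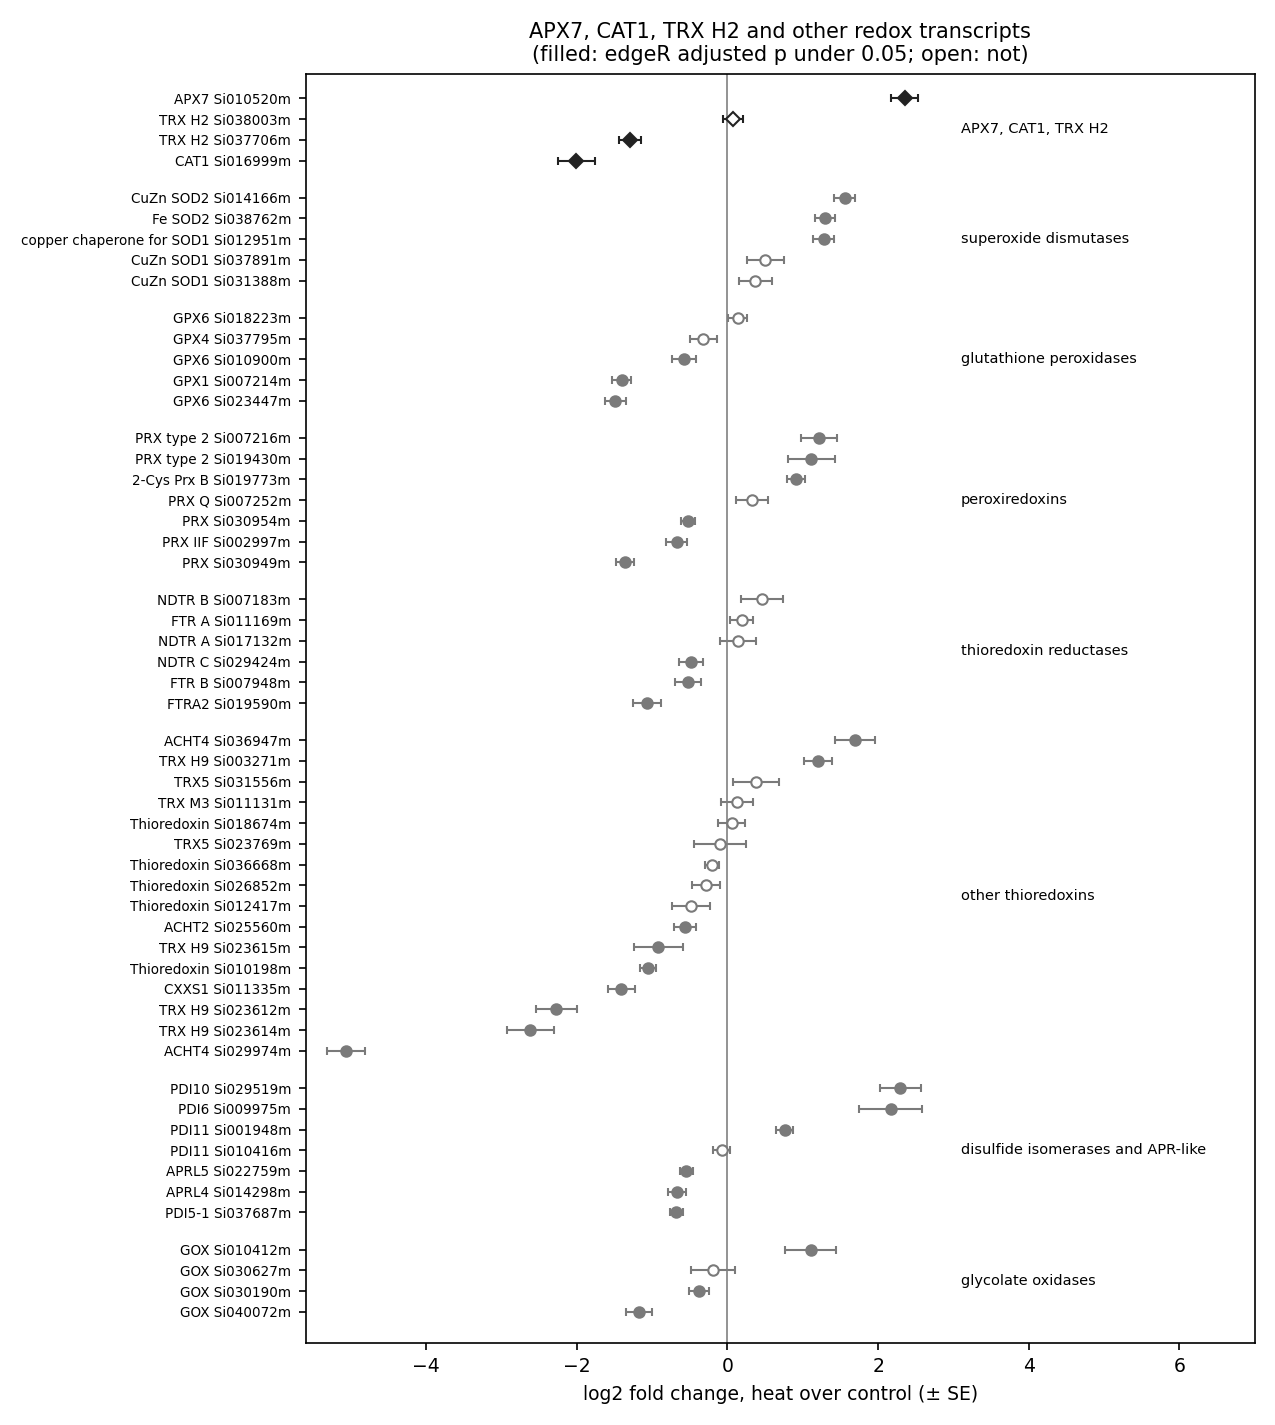
Log2 fold change of heat-stressed over control plants with its SE for APX7, CAT1 and both transcripts labelled TRX H2 (diamonds) and the 50 other tested redox transcripts by list (circles). Filled symbols have an edgeR adjusted p under 0.05. APX7 at 2.35 lies above all 50 listed transcripts, and CAT1 lies above Si023612m, Si023614m and ACHT4 (Si029974m) only.

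Likeness of pattern was measured as the root mean square difference over the 11 plants between log2 CPM values, each centred on its own mean. Of 7315 transcripts with a mean of at least 5 CPM, Si002275m was closest to APX7, at 0.244, followed by Si017716m at 0.246. For CAT1 the closest were Si015216m at 0.331 and Si036462m at 0.337. Among the 58 listed redox and cell type transcripts, the closest to APX7 was PDI10 (Si029519m) at 0.44 and the closest to CAT1 was phosphoribulokinase (Si017390m) at 0.509. For Si037706m the closest was glycolate oxidase Si040072m at 0.137, and for Si038003m it was a transcript named only Thioredoxin, Si036668m, at 0.201. These distances cover both groups, so they mostly follow the difference between heat and control.

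Markers of the leaf cell types were measured beside these results, and all 8 were detected in every plant. The summed mesophyll markers were at 5361 to 15080 CPM in heat-stressed plants and 13620 to 19720 CPM in control plants. The summed bundle sheath markers were at 57.1 to 188 CPM under heat and 255 to 321 CPM in control. Of these, Rubisco small subunit (Si023461m) held only 0.875 to 3.24 CPM under heat and 5.96 to 12 CPM in control. NADP-malic enzyme and phosphoribulokinase thus made up most of that sum. The summed markers listed for any green leaf cell were at 17360 to 22120 CPM under heat and 27850 to 36450 CPM in control. Most of this sum came from Rubisco large subunit (Si020845m), and the study places Rubisco in the bundle sheath. It therefore does not stand for green cells in general. With TMM factors, all 8 markers had a negative log2 fold change, and 7 of 8 passed the threshold. The exception was NADP-malic enzyme (Si000645m) at -0.76 (edgeR adjusted p = 0.0865). Of all tested transcripts, 63.1% passed the threshold, and 30.9% passed it as lower. Library size only shifts every fold change by about 1.07. That is more than the falls of phosphoenolpyruvate carboxylase, carbonic anhydrase, NADP-malic enzyme, Rubisco large subunit and PSBO. Marker values under that scaling are not given here. The falls of CAT1 and Si037706m went with those markers under TMM factors, and the rise of APX7 did not. The part of cell type in each was not tested.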

How the data were processed

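The authors removed ribosomal RNA, trimmed reads with Trimmomatic, aligned them with TopHat2 to the *S. italica* genome and made counts of reads on exons with HTSeq, versions not given in the sources used here. The deposited counts are not normalized, with 2 files per plant (read pairs and single reads), 22 in all. Both were added per plant, and 10 pair files also held that sum, with 0 mismatches. The 5 HTSeq summary lines were left out. As a percentage of the counts and summary lines together, reads on no feature were 11.2 to 12.6 in heat-stressed plants and 5.16 to 8.86 in control plants, ambiguous reads 7.99 to 9.55 and 3.05 to 8.48, and reads with several places 20.2 to 30.8 and 15.4 to 59.1. Reads shared by similar family members are thus uncounted. The study states a strand-specific library, and the strand setting of the counting is not given in the sources used here.

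Heat was compared with control by edgeR 4.0.16 (R 4.3.3, quasi-likelihood test, TMM, filterByExpr at defaults, 18065 of 40599 transcripts, Benjamini-Hochberg, threshold 0.05). Single values were tested by exact permutation of the plants between the groups (2-sided), with a pseudocount of 0.5 in ratios (SciPy 1.17.1). P-values measure the spread between plants, which shared chambers, and intervals of shares cover counting error only. Alternatives used DESeq2 1.42.0 and limma 3.58.1. No plants were duplicates (lowest chi-square per degree of freedom 15.2).

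In simulated data of 17519 genes, the procedure called 76.3% of 93 genes changed by 1 on the log2 scale and 100% of 94 changed by 2. Of its calls, 7.82% were false, which is more than the adjusted p threshold aims for. These changed genes were few, whereas 63.1% of the tested transcripts passed the threshold in the real data. The simulation therefore cannot show how TMM factors or the share of false calls behave in the real data. The transcripts, lists and markers were chosen with earlier results of these data known. Within each list, the 2 called transcripts with the largest absolute log2 fold change and a mean of at least 5 CPM in either group were named, besides glycolate oxidase Si040072m and, for their ratio, all TRX H9 transcripts, which were named after their values were seen. So was the ACHT4 transcript Si036947m. No sequences or positions are given.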

Additional observations from a re-analysis of the deposited data

Results flagged for a closer look

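Reads on no annotated feature, which enter none of the comparisons, were at 11.2% of the counts and HTSeq summary lines together in the lowest heat-stressed plant, above the 8.86% of the highest control plant. Their part in the levels of APX7, CAT1 and TRX H2 was not tested. Among 22 groups of values checked for a plant far from the others, 0 were found, where chance gives about 1 in 20.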

How the results depend on the processing

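APX7 and CAT1 kept their direction and passed the threshold under all 23 alternatives each, with log2 fold changes of 2.26 to 3.40 and -2.12 to -0.93. With each plant left out, Si037706m stayed at -1.35 to -1.18 and Si038003m at 0.01 to 0.16, and calls numbered 10663 to 11229. The APX7 share differed by 58.2 to 62.4 percentage points and the log2 ratio by 4.14 to 4.51.

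With library size only, Si037706m was at -0.24 (edgeR adjusted p = 0.119) and Si038003m at 1.11 (edgeR adjusted p = 6.75e-05), and 13216 transcripts were higher and 1385 lower, since that scaling shifts every fold change by about 1.07. The APX7 plus CAT1 level turned to 0.77 (exact permutation p = 0.00433) and the TRX H2 sum to -0.24 (exact permutation p = 0.108). The lists then had, higher and lower, superoxide dismutases 5 and 0, glutathione peroxidases 3 and 2, peroxiredoxins 5 and 1, reductases 4 and 0, other thioredoxins 9 and 3, disulfide isomerases 7 and 0, and glycolate oxidases 3 and 0. With library size without psbA, Si038003m was at 0.47 (edgeR adjusted p = 0.016), the APX7 plus CAT1 level at 0.11 (exact permutation p = 0.558) and lower calls numbered 3380. With single reads only, 5796 passed (3004 higher, 2792 lower), from fewer counts, the APX7 plus CAT1 level was -0.71 (exact permutation p = 0.013) and the TRX H2 to TRX H9 ratio 0.030 (exact permutation p = 0.935).

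With each plant left out, the CAT1 to glycolate oxidase ratio was -1.03 to -0.73 (exact permutation p = 0.00794 to 0.0762), the APX7 plus CAT1 level -0.40 to -0.17, passing without control plant 3 only, at -0.40 (exact permutation p = 0.0476), and the TRX H2 to TRX H9 ratio -0.35 to 0.015, positive only without control plant 5. Control plants 2 and 5 held more reads with several places, so both were left out together, which was chosen after seeing the data. Si038003m was then at -0.062 (edgeR adjusted p = 0.734) and the CAT1 to glycolate oxidase ratio at -0.68 (exact permutation p = 0.143). The causes were not tested.

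Plant numbers are shared by both groups, but only 1 of 5 same-numbered pairs correlated over 0.1 in their deviations and 2 of 5 control plants matched their own number best, so the plants were treated as unpaired. With the number as a block, APX7 was at 2.37, CAT1 at -1.97, Si037706m at -1.32 and Si038003m at 0.13 (edgeR adjusted p = 0.404), and no call of these 4 changed.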
